A study of Mus musculus with 12 samples.

Results

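The comparison described here is the difference between the rosiglitazone responses of the E157D and the wild-type form of PPARγ2 in mouse fibroblasts. For each probe the log2 change between rosiglitazone and DMSO was taken in E157D cells and in wild-type cells, and the wild-type change was subtracted from the E157D change. All 12 arrays entered it, 3 in each of 4 groups, and all 18921 of the 45281 array probes that were detected at p under 0.05 on at least 3 of the 12 arrays were tested. They stand for 10082 genes with a symbol, each represented by its brightest kept probe, and 2924 of the probes have no symbol here. A negative difference means that the response of E157D cells was lower than that of wild-type cells, and a difference of -1 means that the ratio of rosiglitazone to DMSO was 2 times smaller.

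PPARγ is a nuclear receptor that pairs with RXR, binds direct repeats of a short half-site in DNA and, with an agonist bound, turns on genes of fat cell differentiation, lipid storage and fatty acid use. PPARγ2 is the isoform of fat cells, and rosiglitazone is a thiazolidinedione, a synthetic agonist that also acts on cells in ways that do not need the receptor. E157D stands for a glutamate to aspartate change, which lies in the DNA-binding domain. A difference of responses asks whether the effect of the drug depended on which of the receptors the cells carried. It removes any gap between the receptors that was equally large with and without the drug.

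The cells were NIH-3T3, an established line of mouse embryonic fibroblasts, infected with a lentivirus and grown in blasticidin. The groups were E157D PPARγ2 with 20 µM rosiglitazone, E157D PPARγ2 with DMSO, wild-type PPARγ2 with 20 µM rosiglitazone and wild-type PPARγ2 with DMSO, all treated for 24 h. All groups thus carried a transduced receptor and none was without one, and the sources used here do not give the promoter of the vector or the number of transductions. The labels speak of 3 independent experiments, so the p-values measure the spread between these and may leave out that between transductions. Each array detected 16633 to 17924 probes (36.7% to 39.6%), arrays of 1 group correlated at 0.986 to 0.992, and all 14 fibroblast markers on the array were detected. The transgene could not be followed, since the 3 Pparg probes were below detection on all arrays, at a detection value of 0.12 or higher against the limit of 0.05. The amount of each receptor is therefore unknown, and an effect of the residue and an effect of receptor amount cannot be told apart.

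Rosiglitazone acted differently with the 2 receptors on 349 of the 18921 probes (1.84%), by limma with p-values adjusted after Benjamini and Hochberg (threshold 0.05). The response was lower in E157D cells for 225 probes (1.19%) and higher for 124 (0.655%), so 64.5% of the differences were lower ones. Counted as genes with 1 probe each, 225 of 10082 genes differed (2.23%), 142 lower (1.41%) and 83 higher (0.823%). The smallest that passed was 0.64 on the log2 scale against a median standard error of 0.23, the median was -1.19 for the lower and 1.06 for the higher ones, and 28 lower and 5 higher probes differed by at least 2. Before adjustment 2748 probes had p under 0.05. In all 349 probes the 9 differences between rosiglitazone and DMSO arrays of E157D cells did not overlap the 9 of wild-type cells, a separation seen in 8.46% of all kept probes. The same values chose the 349 probes, so this describes them and adds no support. The count fell by more than 1.5 times when certain single arrays were left out. It was 228 and 206 without E157D rosiglitazone array 1 and 2, and 206, 219 and 179 without E157D DMSO array 1, 2 and 3. It was 216 without wild-type rosiglitazone array 1, and 208 and 206 without wild-type DMSO array 2 and 3. With the replicate number as a block it was 499, 299 lower and 200 higher. In cultures, fewer responding cells and a smaller response per cell cannot be told apart.

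The lower differences had a common form, given here as a description since these values make up the contrast. All 225 probes had a wild-type response above 0. The E157D response was above 0 but smaller for 143 of them, with a median of 0.29 in E157D cells against 1.52 in wild-type cells, and a median of 20.4% of the log2 response was kept. For the other 82 it was below 0, at a median of -0.20 in E157D cells against 1.06 in wild-type cells. In 184 of the 225 the E157D response was under 0.5 in size. The E157D level was below the wild-type level in rosiglitazone for 224 probes, at a median of -1.30. In DMSO it was below for 156 and above for 69, at a median of -0.12, and 173 lay within 0.5 of each other.

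The higher differences had more than 1 form. For 73 of the 124 probes the response was above 0 in E157D cells and below 0 in wild-type cells, with medians of 0.53 and -0.61. For 31 it was below 0 in both and nearer to 0 in E157D cells, with medians of -0.15 and -1.03. For 20 it was above 0 in both and larger in E157D cells, with medians of 1.38 and 0.16. These forms go by sign alone. The wild-type response was under 0.5 in size for 48 of the 124, and the E157D response for 59. The E157D level was above the wild-type level in rosiglitazone for 122 of the 124, at a median of 1.19. In DMSO it was above for 82 and below for 42, at a median of 0.19, and 91 lay within 0.5 of each other. The gap between the receptors was larger in DMSO than in rosiglitazone for 6 lower and 7 higher probes.

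**Figure D1:**
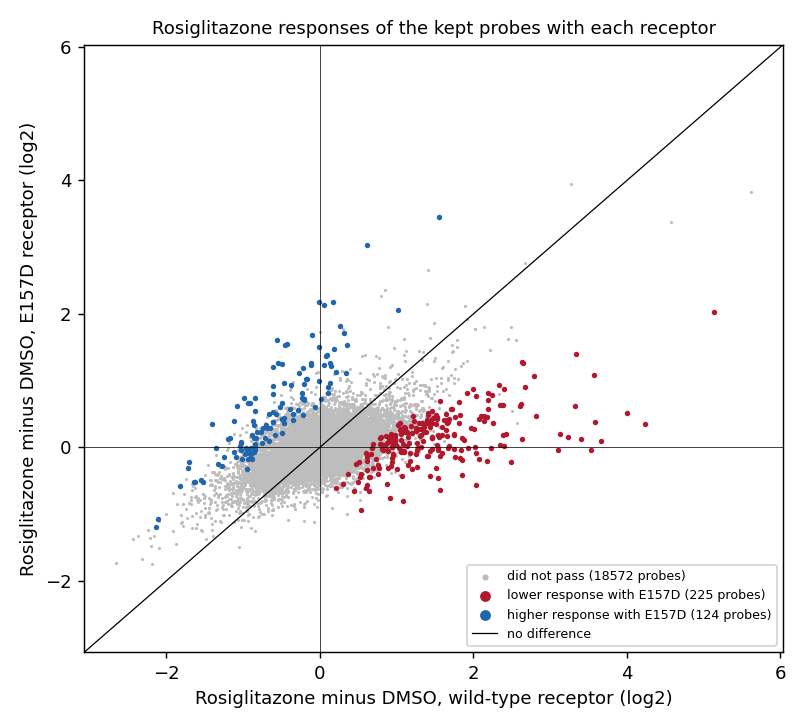
Log2 rosiglitazone response of each kept probe with the E157D receptor (vertical axis) against that with the wild-type receptor (horizontal axis), where each point is 1 probe and the diagonal marks equal responses. The 225 lower probes lie to the right of the diagonal, all at a wild-type response above 0 and mostly near 0 with E157D, and the 124 higher probes lie to its left.

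**Figure D2:**
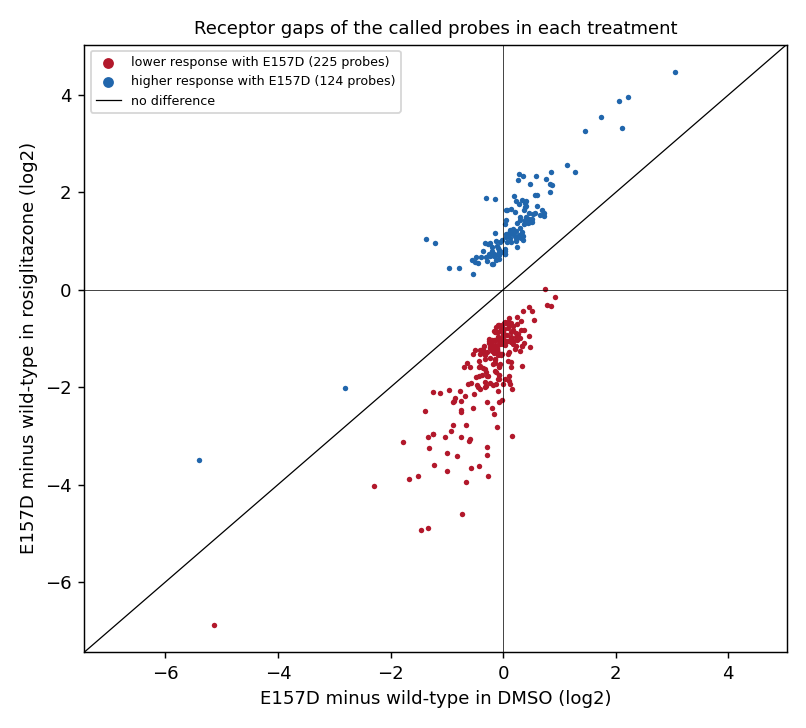
Log2 difference of E157D from wild-type levels in rosiglitazone (vertical axis) against the same in DMSO (horizontal axis) for the 349 probes that passed. Most points lie near 0 on the horizontal axis and away from 0 on the vertical one, and the few points far from 0 on both are genes whose levels differed between the receptors in DMSO too.

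Most further probes of the genes that passed had the same sign. The 225 genes with a difference included 94 with further kept probes, 128 in all, of which 119 had the sign of the representing probe and 44 passed with that sign. None passed with the opposite sign, but not every gene was borne out by its other probes, as Tnc shows below. These probes were hybridised to the same RNA on the same arrays. Among all genes 67.7% of the 5915 further probes had the same sign.

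The 3 acyltransferases at successive steps of triglyceride synthesis described next responded less in E157D cells. The list held 13 tested genes of 17 on the array, of which 3 had a lower response and 0 a higher one, with a median difference of -0.61, beside 1.41% lower, 0.823% higher and a median of 0.025 over all genes. Gpat3, which joins the first fatty acid to glycerol phosphate, had log2 intensities of 6.48, 6.58 and 6.35 in E157D cells with rosiglitazone, 5.54, 5.2 and 5.44 in E157D cells with DMSO, 9.92, 9.47 and 9.25 in wild-type cells with rosiglitazone and 5.67, 6.04 and 6.21 in wild-type cells with DMSO. Each wild-type rosiglitazone array was far above the other 9 arrays, and the E157D rosiglitazone arrays were above the E157D DMSO arrays by less. The response was 1.08 in E157D cells and 3.57 in wild-type cells, a difference of -2.49 ± 0.26 (SE, n = 3 arrays a group; 95% interval -3.06 to -1.92, limma adjusted p = 0.000403).

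Agpat2 adds the second fatty acid, and its human gene is mutated in a congenital lipodystrophy. The log2 intensities of Agpat2 were 5.96, 5.27 and 5.54 in E157D cells with rosiglitazone, 5.66, 5.26 and 5.47 in E157D cells with DMSO, 9.78, 9.30 and 9.51 in wild-type cells with rosiglitazone and 5.87, 6.40 and 6.11 in wild-type cells with DMSO. In E157D cells the drug and vehicle arrays overlapped near the detection limit (2 of 3 arrays detected in each), whereas in wild-type cells they were far apart. The responses were 0.13 in E157D cells and 3.40 in wild-type cells, and the difference was -3.27 ± 0.28 (adjusted p = 0.000127, limma). Dgat1, which adds the last fatty acid, had log2 intensities of 7.52, 7.85 and 7.01 in E157D cells with rosiglitazone, 7.29, 7.64 and 7.59 in E157D cells with DMSO, 9.61, 9.12 and 9.35 in wild-type cells with rosiglitazone and 7.82, 7.84 and 7.81 in wild-type cells with DMSO. Here too the E157D groups overlapped, and the wild-type rosiglitazone arrays stood above all others, with a difference of -1.58 ± 0.28 (adjusted p = 0.0128, limma).

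Proteins of the lipid droplet split into genes with and without a difference. Of 17 tested members of 21 on the array, 4 had a lower response and 0 a higher one (all genes: 1.41% and 0.823%). The median was -0.34 (-0.30 with groups not above background raised to the detection floor). Of the 4, Plin1 and Aqp7 passed the detection filter through wild-type arrays alone, so the count partly follows from the filter. With detection required on all 12 arrays the lower count was 1. Plin1, the droplet coat protein of fat cells, had log2 intensities of 4.99, 4.86 and 4.74 in E157D cells with rosiglitazone, 4.64, 4.77 and 4.58 in E157D cells with DMSO, 8.28, 7.82 and 8.16 in wild-type cells with rosiglitazone and 4.83, 4.75 and 5.29 in wild-type cells with DMSO. It was detected on the 3 wild-type rosiglitazone arrays only, so the wild-type level was at least 6.19-fold higher in rosiglitazone than in DMSO and E157D cells gave no measurable response. Its difference was -2.93 ± 0.23 (adjusted p = 0.000116, limma), or -2.66 at the floor. The floor is the lowest log2 value of a detected probe on each array, 5.35 to 5.52, and a group not detected on any of its arrays has only that bound. Only such groups were raised to the floor. A difference at the floor can thus be larger or smaller than the estimate and is not a cautious bound.

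Cidec, which fuses droplets into larger ones, had log2 intensities of 7.12, 6.35 and 6.49 in E157D cells with rosiglitazone, 4.60, 4.59 and 4.67 in E157D cells with DMSO, 10.35, 9.71 and 10.09 in wild-type cells with rosiglitazone and 4.95, 4.83 and 4.95 in wild-type cells with DMSO. It was not above background in DMSO with either receptor and was detected on all rosiglitazone arrays of both, with every E157D value below every wild-type value. Rosiglitazone levels were at least 2.34-fold higher than DMSO levels in E157D cells and at least 24.2-fold higher in wild-type cells, and the difference was -3.10 ± 0.28 (adjusted p = 0.000138, limma), or -3.37 at the floor. Cidec thus kept part of its response with E157D.

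G0s2, an inhibitor of the main triglyceride lipase, had log2 intensities of 4.82, 5.07 and 6.33 in E157D cells with rosiglitazone, 5.0, 4.96 and 4.71 in E157D cells with DMSO, 10.52, 10.12 and 10.40 in wild-type cells with rosiglitazone and 6.31, 6.30 and 6.43 in wild-type cells with DMSO. It was detected on 1 E157D rosiglitazone array, on no E157D DMSO array and on all wild-type arrays. The difference was -3.48 ± 0.42 (adjusted p = 0.00125, limma), or -4.02 at the floor. Here the floor raised the E157D DMSO group alone, so the larger size is no bound. Aqp7, a channel that lets glycerol out of fat cells, was not detected on any E157D array, and its log2 intensities in wild-type cells were 9.21, 8.21 and 8.68 with rosiglitazone and 6.76, 5.91 and 6.29 with DMSO. That is a 5.21-fold wild-type response, and the difference of -2.20 ± 0.34 (adjusted p = 0.007, limma), or -2.41 at the floor, depends on the background of the E157D arrays.

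Plin2, the droplet coat protein found in most cells, did not differ by the test. Its log2 intensities were 13.13, 12.42 and 12.83 in E157D cells with rosiglitazone, 10.97, 10.94 and 10.68 in E157D cells with DMSO, 13.88, 13.59 and 13.55 in wild-type cells with rosiglitazone and 11.96, 11.56 and 11.76 in wild-type cells with DMSO. Both receptors showed a similar step between DMSO and rosiglitazone, 1.93 in E157D cells and 1.91 in wild-type cells, from a lower level in E157D cells. The difference was 0.02 ± 0.25 with a 95% interval of -0.54 to 0.57 (adjusted p = 0.983, limma), so the responses lay within 1.5-fold of each other. Plin2 had the largest average response among all genes whose interval met that margin.

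**Figure D3:**
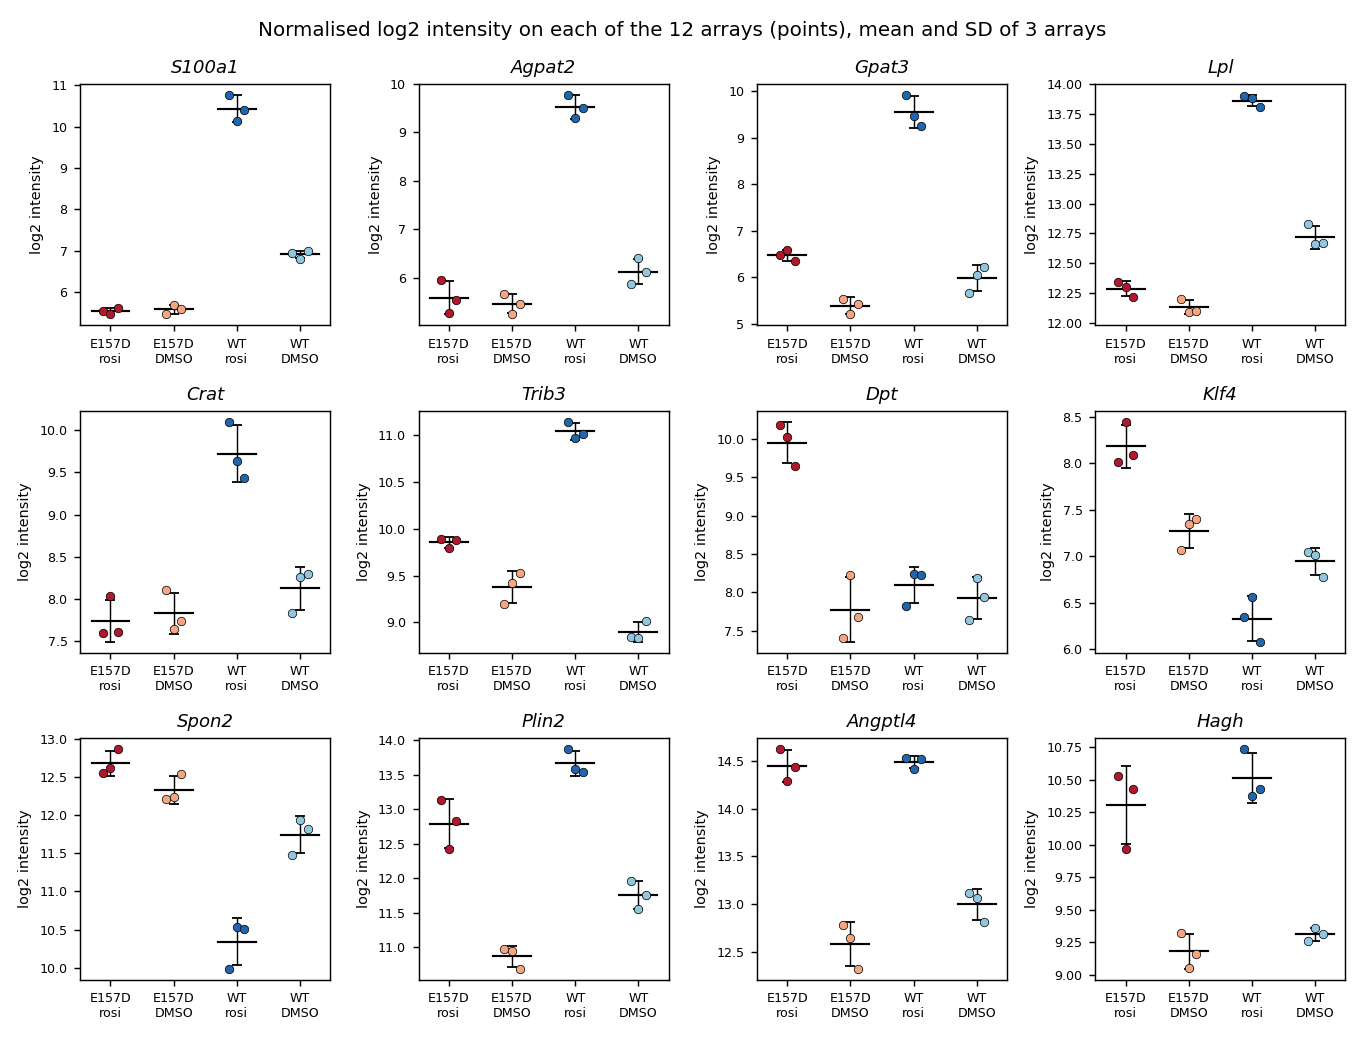
Normalised log2 intensity of 12 genes on each of the 12 arrays (points), with the mean and SD of the 3 arrays of a group, each panel on its own vertical scale. S100a1 to Trib3 show wild-type rosiglitazone arrays above the other groups, and Dpt, Klf4 and Spon2 show a higher response with E157D. Plin2 and Hagh show similar steps with both receptors. Angptl4 was higher with the drug with both, and its difference did not pass but its interval reached beyond 1.5-fold.

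Among PPAR target genes, 8 of 22 tested members (31 on the array) had a lower response in E157D cells and 0 a higher one, a share of 36.4% beside 1.41% of all genes. Their median difference was -0.68, with 15 below and 7 above 0 (all genes: 4753 below and 5329 above). The 8 were G0s2, Cidec, Plin1, Aqp7, Adipoq, Acot2, Lpl and Cpt2. Plin1 and Aqp7 passed the detection filter through wild-type arrays alone. With detection required on all 12 arrays the lower count was 4, and the other alternatives gave 7 to 12. In place of 0, 1 member was higher without background correction, with offset 50, the authors' processed values or a trended, robust variance. The same held without E157D rosiglitazone array 2. The call of Cpt2 was lost in each of the 12 fits that left out 1 array (adjusted p up to 0.122) and with median scaling of the arrays in place of quantile normalisation (0.238). The members of this and the other lists were chosen with results of these data known, so the share describes these genes and is no independent evidence.

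Adipoq, the gene of the fat cell hormone adiponectin, had log2 intensities of 6.12, 6.54 and 6.14 in E157D cells with rosiglitazone, 4.93, 4.79 and 4.89 in E157D cells with DMSO, 9.43, 9.45 and 9.68 in wild-type cells with rosiglitazone and 6.08, 6.03 and 6.45 in wild-type cells with DMSO. Rosiglitazone levels were at least 1.79-fold higher than DMSO levels in E157D cells, where no DMSO array was above background, and 10.1-fold higher in wild-type cells. The wild-type DMSO arrays overlapped the E157D rosiglitazone arrays, and the difference was -1.94 ± 0.21 (adjusted p = 0.000606, limma), or -2.50 at the floor. Adipoq was the 1 member of 8 tested adipokines and metabolic hormones that passed (all genes: 1.41% lower), and the median of that list was 0.15.

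Lpl, the lipase that frees fatty acids from lipoproteins, had log2 intensities of 12.34, 12.30 and 12.22 in E157D cells with rosiglitazone, 12.20, 12.09 and 12.10 in E157D cells with DMSO, 13.90, 13.89 and 13.81 in wild-type cells with rosiglitazone and 12.83, 12.66 and 12.67 in wild-type cells with DMSO. It was among the brightest genes here, and the wild-type rosiglitazone arrays lay close together and above the rest. The response was 0.16 in E157D cells and 1.15 in wild-type cells, a difference of -0.99 ± 0.14 (95% interval -1.30 to -0.68, adjusted p = 0.00435, limma). Fabp5, a carrier of fatty acids in many cell types, differed by -1.76 ± 0.31 (adjusted p = 0.0128, limma), with log2 intensities of 6.73, 6.04 and 6.47 in E157D cells with rosiglitazone and 7.91, 8.50 and 8.35 in wild-type cells with rosiglitazone.

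Acsbg1, an acyl-CoA synthetase of the same list of fatty acid uptake and activation, went the other way. Its log2 intensities were 8.0, 7.99 and 7.84 in E157D cells with rosiglitazone, 6.09, 5.70 and 5.86 in E157D cells with DMSO, 7.01, 6.61 and 6.76 in wild-type cells with rosiglitazone and 5.83, 5.73 and 5.79 in wild-type cells with DMSO. Both receptors gave higher levels with the drug on every array, and the E157D response of 2.06 exceeded the wild-type response of 1.02 by 1.04 ± 0.19 (adjusted p = 0.0168, limma). Of the 12 tested members of that list 2 were lower and 1 higher (all genes: 1.41% and 0.823%), with a median of -0.05.

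Other well-known targets did not pass. Fabp4, the fatty acid carrier of fat cells, was detected on the 3 wild-type rosiglitazone arrays only, at 6.76, 5.58 and 6.40, and differed by -1.22 ± 0.32 (adjusted p = 0.0876, limma), or -0.82 at the floor. Without wild-type rosiglitazone array 2 it passed (-1.56, adjusted p = 0.00285), the 1 of 21 alternatives that did (adjusted p up to 0.171). Fgf21, a metabolic hormone, had log2 intensities of 9.48, 8.95 and 8.79 in E157D cells with rosiglitazone, 5.14, 5.40 and 5.18 in E157D cells with DMSO, 11.76, 10.61 and 10.15 in wild-type cells with rosiglitazone and 5.18, 5.14 and 5.33 in wild-type cells with DMSO. It was not above background in DMSO, and rosiglitazone levels were at least 12.5-fold higher in E157D cells and at least 41.7-fold higher in wild-type cells. The wild-type rosiglitazone arrays were all above the E157D ones but spread widely, and the difference of -1.79 ± 0.45 did not pass (adjusted p = 0.0708, limma). It passed in 7 of 21 alternatives (adjusted p 0.0138 to 0.153 over all 21), among them without wild-type rosiglitazone array 1 (-1.33, adjusted p = 0.0459) and without array 3 (-2.13, adjusted p = 0.0243). Cd36, a fatty acid transporter, was below detection on all 12 arrays and was left out.

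Angptl4, a secreted inhibitor of Lpl, had log2 intensities of 14.62, 14.28 and 14.43 in E157D cells with rosiglitazone, 12.78, 12.65 and 12.33 in E157D cells with DMSO, 14.53, 14.42 and 14.52 in wild-type cells with rosiglitazone and 13.12, 13.07 and 12.82 in wild-type cells with DMSO. The rosiglitazone arrays of the receptors overlapped, and the difference was 0.37 ± 0.20 with an interval of -0.06 to 0.81 (adjusted p = 0.426, limma). Pdk4, a kinase that limits pyruvate use, differed by 0.26 ± 0.21 with an interval of -0.19 to 0.71 (adjusted p = 0.621, limma). Both intervals reach beyond 1.5-fold on the side of a higher E157D response and leave out a lower E157D response of that size.

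**Figure D4:**
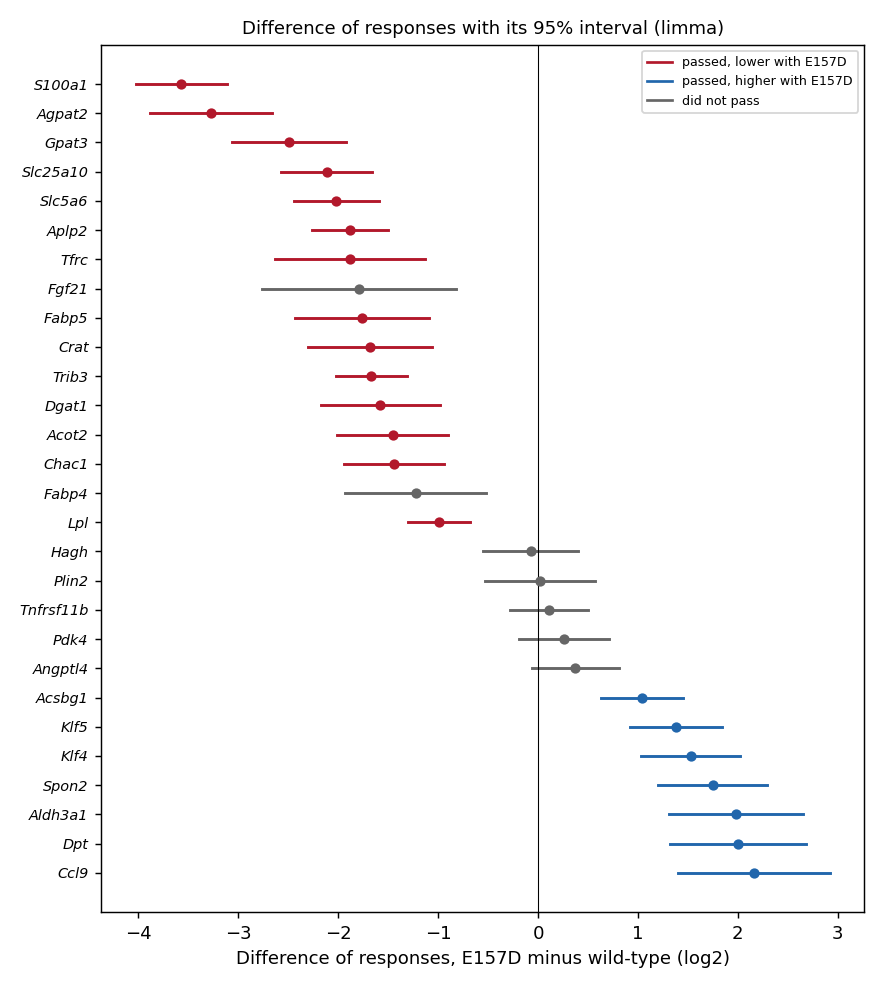
Difference of the log2 responses, E157D minus wild-type, with its 95% interval from limma for 28 genes described in the text, ordered by size. The intervals of Plin2, Hagh and Tnfrsf11b lie close around 0, those of Fgf21 and Fabp4 leave out 0 although their adjusted p did not pass, and those of S100a1, Agpat2 and Gpat3 lie farthest below 0.

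Among genes that burn fatty acids 4 had a lower response in E157D cells. Of 23 tested genes of mitochondrial fatty acid oxidation 21 had a difference below 0 (all genes: 4753 of 10082), 4 passed as lower and 0 as higher (all genes: 1.41% and 0.823%), and the median was -0.52, with median responses of 0.40 in E157D cells and 0.91 in wild-type cells. Crat, which moves acetyl groups onto carnitine, had log2 intensities of 7.6, 8.03 and 7.61 in E157D cells with rosiglitazone, 8.10, 7.65 and 7.74 in E157D cells with DMSO, 10.10, 9.63 and 9.44 in wild-type cells with rosiglitazone and 7.83, 8.26 and 8.29 in wild-type cells with DMSO. The E157D groups overlapped, the wild-type rosiglitazone arrays were highest, and the difference was -1.68 ± 0.29 (adjusted p = 0.0115, limma). Acot2, a mitochondrial acyl-CoA thioesterase, responded by 0.79 in E157D cells and 2.24 in wild-type cells, a difference of -1.46 ± 0.26 (adjusted p = 0.0134, limma). Decr1, needed for unsaturated fatty acids, and Cpt2, which returns fatty acids from carnitine to coenzyme A, differed by -0.83 ± 0.19 and -0.64 ± 0.14 (adjusted p = 0.0487 and 0.0473, limma). The call of Decr1 was lost when any 1 array except E157D DMSO 2 was left out (adjusted p up to 0.118), and also with median scaling, array weights or no detection filter.

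The list of citric acid cycle and pyruvate entry also holds the cytosolic Mdh1. Of its 20 tested genes 4, Mdh1 among them, were lower and 0 higher (all genes: 1.41% and 0.823%), with a median of -0.38. Idh3a, a subunit of isocitrate dehydrogenase, had log2 intensities of 9.22, 9.26 and 9.37 in E157D cells with rosiglitazone, 8.29, 8.53 and 8.42 in E157D cells with DMSO, 10.54, 10.16 and 10.33 in wild-type cells with rosiglitazone and 8.26, 8.44 and 8.36 in wild-type cells with DMSO. The DMSO groups overlapped and the rosiglitazone groups did not, with responses of 0.87 in E157D cells and 1.99 in wild-type cells and a difference of -1.12 ± 0.17 (adjusted p = 0.007, limma). Pdhb, of the pyruvate dehydrogenase complex, Mdh1, the cytosolic malate dehydrogenase, and Cs, citrate synthase, differed by -1.07 ± 0.21, -1.05 ± 0.21 and -0.72 ± 0.16 (adjusted p = 0.0255, 0.027 and 0.0372, limma). The call of Pdhb was lost when any 1 array except E157D rosiglitazone 3, wild-type rosiglitazone 2 and 3 and wild-type DMSO 1 was left out (adjusted p up to 0.0702). That of Mdh1 was lost when any 1 array except E157D rosiglitazone 1, E157D DMSO 3, wild-type rosiglitazone 1 and 2 and wild-type DMSO 1 was left out (adjusted p up to 0.0682), and that of Cs when any 1 array except wild-type DMSO 3 was left out (adjusted p up to 0.102). Both were also lost with median scaling.

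In the respiratory chain and ATP synthase 24 of 28 tested genes had a difference below 0 (all genes: 4753 of 10082), but only 2 passed as lower and 0 as higher (all genes: 1.41% and 0.823%), with a median of -0.37. These were Cycs, cytochrome c (-1.26 ± 0.27, adjusted p = 0.0384), and Cyc1, cytochrome c1 of complex III (-0.74 ± 0.15, adjusted p = 0.0237, limma for both). The call of Cycs was lost when any 1 array except E157D rosiglitazone 1 and wild-type DMSO 1 was left out (adjusted p up to 0.095), and that of Cyc1 when any 1 array except E157D rosiglitazone 1, E157D DMSO 2, wild-type rosiglitazone 2 and wild-type DMSO 1 was left out (adjusted p up to 0.071). The call of Cycs was also lost with no detection filter and that of Cyc1 with median scaling. Of 22 peroxisomal genes 2 were lower and 1 higher (all genes: 1.41% and 0.823%), with a median of -0.37. The lower ones were Pex19, the chaperone that inserts peroxisomal membrane proteins (-1.25 ± 0.21, adjusted p = 0.00987), and Pex16, which takes part in the same step (-1.10 ± 0.20, adjusted p = 0.0148). The higher one, Acox3, an oxidase of branched fatty acids, differed by 0.70 ± 0.15 (adjusted p = 0.0321, limma for all), and its call was lost when any 1 array except E157D rosiglitazone 2 and wild-type DMSO 1 was left out (adjusted p up to 0.0867), and also with median scaling or a trended, robust variance.

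Of the stress response led by ATF4 and CHOP, 7 genes responded less in E157D cells. ATF4 is a transcription factor made more when cells are stressed or short of amino acids, and it acts with C/EBP family partners such as CHOP. Of 22 tested genes of this list 7 were lower and 0 higher (31.8%, beside 1.41% and 0.823% of all genes). All 22 had a difference below 0 (all genes: 4753 of 10082), and the median was -0.72. The median response was 0.25 in E157D cells and 0.90 in wild-type cells. The genes encoding ER chaperones, another arm of the stress response, had a median of -0.01 with 1 of 16 lower, Dnajb9, a co-chaperone (-1.41 ± 0.20, adjusted p = 0.00455, limma).

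Trib3, a pseudokinase induced by ATF4 and CHOP, had log2 intensities of 9.90, 9.79 and 9.88 in E157D cells with rosiglitazone, 9.20, 9.42 and 9.53 in E157D cells with DMSO, 11.14, 10.97 and 11.01 in wild-type cells with rosiglitazone and 8.84, 8.84 and 9.02 in wild-type cells with DMSO. In DMSO every E157D array was above every wild-type array, and in rosiglitazone every E157D array was below, so the order of the receptors turned over. The responses were 0.47 in E157D cells and 2.14 in wild-type cells, and the difference was -1.67 ± 0.16 (95% interval -2.03 to -1.31, adjusted p = 0.00025, limma). Chac1, an enzyme that degrades glutathione, had log2 intensities of 10.20, 10.07 and 10.00 in E157D cells with rosiglitazone, 9.58, 9.81 and 9.77 in E157D cells with DMSO, 11.59, 11.42 and 10.92 in wild-type cells with rosiglitazone and 9.40, 9.67 and 9.43 in wild-type cells with DMSO. The wild-type rosiglitazone arrays were above the 9 others, and the difference was -1.44 ± 0.23 (adjusted p = 0.00743, limma).

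Ppp1r15a, which restarts protein synthesis after stress, differed by -1.15 ± 0.18 (adjusted p = 0.007), with responses of 0.23 in E157D cells and 1.38 in wild-type cells. Ddit3, the gene of CHOP itself, had log2 intensities of 11.06, 11.08 and 11.34 in E157D cells with rosiglitazone, 10.61, 10.88 and 10.51 in E157D cells with DMSO, 12.26, 12.11 and 12.18 in wild-type cells with rosiglitazone and 10.45, 10.93 and 10.62 in wild-type cells with DMSO. Levels in DMSO overlapped and the difference was -1.03 ± 0.21 (adjusted p = 0.0296), a call that was lost when any 1 array except E157D rosiglitazone 3, E157D DMSO 3, wild-type rosiglitazone 2 and wild-type DMSO 2 was left out (adjusted p up to 0.0746) and with median scaling. The remaining 3 members that passed were named after their values were seen. They were Mthfd2, an enzyme of mitochondrial one-carbon metabolism (-1.01 ± 0.20, adjusted p = 0.0242), Phgdh, the first enzyme of serine synthesis (-0.80 ± 0.18, adjusted p = 0.0442), and Wars, the tryptophan tRNA synthetase (-0.75 ± 0.14, adjusted p = 0.0197). All adjusted p-values in this paragraph are from limma. The call of Mthfd2 was lost when any 1 array except E157D rosiglitazone 1, wild-type rosiglitazone 3 and wild-type DMSO 1 was left out (adjusted p up to 0.0683), and that of Phgdh when any 1 array except wild-type rosiglitazone 3 was left out (adjusted p up to 0.114). That of Wars was lost without E157D rosiglitazone array 1 or E157D DMSO array 1 or 3 (adjusted p up to 0.0553). Median scaling also ended the calls of Phgdh and Wars, and no detection filter that of Phgdh.

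The promoters of Chac1 and Trib3 are shown as those of this list that passed and hold the letters of the element that ATF4 binds with a C/EBP partner. The windows run from 250 bases before to 50 bases after the start of the gene, 5′ to 3′ along the gene, from RefSeq on GRCm38.p6, and capitals mark the match, which lies on the opposite strand in both. Chac1 is at chr2:119350992-119351291 on the + strand, and Trib3 at chr2:152344011-152344310 on the - strand.
Chac1: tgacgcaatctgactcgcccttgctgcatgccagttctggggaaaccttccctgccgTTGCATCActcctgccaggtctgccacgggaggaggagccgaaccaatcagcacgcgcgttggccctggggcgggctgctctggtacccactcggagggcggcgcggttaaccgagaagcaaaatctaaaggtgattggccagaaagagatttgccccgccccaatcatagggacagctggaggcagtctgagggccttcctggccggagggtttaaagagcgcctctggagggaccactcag
Trib3: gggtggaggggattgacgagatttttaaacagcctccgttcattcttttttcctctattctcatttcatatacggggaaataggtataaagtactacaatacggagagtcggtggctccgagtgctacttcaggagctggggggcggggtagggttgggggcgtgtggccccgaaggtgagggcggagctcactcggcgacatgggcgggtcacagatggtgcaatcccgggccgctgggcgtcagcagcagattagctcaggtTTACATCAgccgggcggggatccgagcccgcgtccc

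Counted from the first base of the gene as 0, the match of Chac1 begins at base -193 and that of Trib3 at base 14. The letters searched were TGATGNAA on both strands, chosen after the results were seen. Of the 21 genes of the ATF4 and CHOP list with a RefSeq promoter 8 held them (38.1%), as did 2 of the 6 among the members that passed. The other holders, Aars, Asns, Atf3, Nupr1, Slc7a11 and Vldlr, did not pass (limma adjusted p 0.0679 to 0.816). The letters stood in 3.42% of the 117 promoters of genes with a lower response and 3.39% of the 59 with a higher response. They stood in 2.74% of 8226 promoters of all tested genes. The list consists of known ATF4 targets, so its share reflects how the list was made. The letters of the PPAR and RXR element, 2 half-sites AGGTCA with 1 base between, on either strand and with up to 1 mismatch, were found in 0 promoters of the 117 and 0 of the 59, and in 36 of 8226 (0.438%). The half-site AGGTCA alone stood in 11.97%, 11.86% and 14.37% of the 3 sets. These windows are short, and a match is a description of letters and not a site.

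The largest difference outside these groups, among genes detected in every group, was that of S100a1, a calcium-binding protein. Its log2 intensities were 5.53, 5.46 and 5.61 in E157D cells with rosiglitazone, 5.46, 5.68 and 5.59 in E157D cells with DMSO, 10.77, 10.14 and 10.39 in wild-type cells with rosiglitazone and 6.93, 6.8 and 6.98 in wild-type cells with DMSO. All 6 E157D arrays were at 5.46 to 5.68, near the detection limit, and below the wild-type DMSO arrays, while the wild-type rosiglitazone arrays were at 10.14 or above. The response was -0.04 in E157D cells and 3.53 in wild-type cells, a difference of -3.57 ± 0.21 (95% interval -4.03 to -3.12, adjusted p = 1.26e-05, limma).

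Slc25a10, the mitochondrial dicarboxylate carrier, had log2 intensities of 8.33, 7.83 and 7.95 in E157D cells with rosiglitazone, 8.19, 7.91 and 8.27 in E157D cells with DMSO, 10.97, 10.68 and 10.83 in wild-type cells with rosiglitazone and 8.79, 8.71 and 8.88 in wild-type cells with DMSO. The difference was -2.12 ± 0.21 (adjusted p = 0.000269), with overlapping E157D groups. Slc5a6 takes up biotin and pantothenate, the vitamin from which coenzyme A is made. It had log2 intensities of 8.50, 8.58 and 8.6 in E157D cells with rosiglitazone, 8.37, 8.74 and 8.55 in E157D cells with DMSO, 10.68, 10.84 and 11.09 in wild-type cells with rosiglitazone and 8.81, 8.72 and 9.0 in wild-type cells with DMSO. Its difference was -2.02 ± 0.19 (adjusted p = 0.000218), and the wild-type rosiglitazone arrays stood above the other 9. Mfsd7a, of the major facilitator family, Slc41a3, of a family of magnesium transporters, and Tfrc, the transferrin receptor that brings in iron, differed by -1.98 ± 0.18, -1.86 ± 0.18 and -1.88 ± 0.35 (adjusted p = 0.000149, 0.00025 and 0.0177, limma for all). The call of Tfrc was lost without E157D rosiglitazone array 2 (adjusted p = 0.051).

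Aplp2, an amyloid precursor-like membrane protein and a bright gene, had log2 intensities of 11.04, 11.17 and 11.23 in E157D cells with rosiglitazone, 11.93, 11.83 and 12.10 in E157D cells with DMSO, 14.07, 13.89 and 13.81 in wild-type cells with rosiglitazone and 12.69, 12.996 and 12.85 in wild-type cells with DMSO. Rosiglitazone arrays were below DMSO arrays in E157D cells and above them in wild-type cells, with responses of -0.81 and 1.08 and a difference of -1.88 ± 0.18 (adjusted p = 0.000165, limma). The remaining genes of this kind were Lims2, a focal adhesion protein (-2.72 ± 0.41, adjusted p = 0.00586), Chchd10, a protein of the mitochondrial intermembrane space (-2.24 ± 0.39, 0.0126), Fam107b (-1.89 ± 0.19, 0.000324), Cdsn, a cell adhesion protein of skin (-1.82 ± 0.28, 0.00708), and Glyat, a mitochondrial glycine acyltransferase (-1.91 ± 0.35, 0.0172, limma for all). Chchd10 was detected on 1 of 3 arrays in every group but wild-type rosiglitazone, and Glyat on 1 E157D rosiglitazone, 2 E157D DMSO and 1 wild-type DMSO array, so their sizes rest on values near background. With the authors' processed values the differences of Chchd10 and Glyat were -0.83 and -0.64, and both passed. The call of Glyat was lost without E157D DMSO array 3 (adjusted p = 0.0507). From the glycolysis and hypoxia list 2 of 16 were lower (all genes: 1.41%), Egln3, an oxygen-sensing hydroxylase (-1.63 ± 0.16, adjusted p = 0.000269), and Vegfa, the blood vessel growth factor (-0.85 ± 0.18, adjusted p = 0.0345, limma for both). The call of Vegfa was lost when any 1 array except E157D rosiglitazone 1, E157D DMSO 2, wild-type rosiglitazone 3 and wild-type DMSO 1 was left out (adjusted p up to 0.095) and with median scaling, and the median of the list was -0.09.

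Other genes passed with a group that was not above background on any array, and their sizes depend on that background. Without background correction 30 of the 77 genes named here as passing had a difference more than 1.5 times smaller, some of them detected in every group, such as Agpat2 (-1.99), Klf4 (0.79) and Slc41a3 (-0.97). Of the 349 probes 69 had a group not detected on any array, 44 lower and 25 higher. Ffar2, which senses short-chain fatty acids, was not detected on the 6 E157D arrays. Its log2 intensities in wild-type cells were 9.78, 9.46 and 9.59 with rosiglitazone and 4.94, 5.61 and 5.59 with DMSO, an 18.8-fold response, and the difference was -3.88 ± 0.27 (adjusted p = 5.16e-05), or -4.26 at the floor. Atp2a3, a calcium pump of the endoplasmic reticulum, was detected on the wild-type rosiglitazone arrays alone, at 9.06, 8.27 and 8.48, and the difference was -3.55 ± 0.29 (adjusted p = 0.000116), or -3.18 at the floor. Sh3tc2, whose human gene is mutated in an inherited neuropathy, differed by -2.51 ± 0.24 and Aldh1a7, an aldehyde dehydrogenase, by -2.34 ± 0.36 (adjusted p = 0.000218 and 0.00702), or -2.66 and -2.81 at the floor. Cyp4b1, a cytochrome P450, and its pseudogene Cyp4b1-ps2 differed by -2.38 ± 0.36 and -3.15 ± 0.26 (adjusted p = 0.00624 and 0.000116, limma for all), or -2.21 and -2.37 at the floor. Their sequences are close, so the probes may share signal.

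Among genes with a higher response in E157D cells, Dpt, dermatopontin of the extracellular matrix, had log2 intensities of 10.18, 10.02 and 9.65 in E157D cells with rosiglitazone, 7.41, 8.23 and 7.68 in E157D cells with DMSO, 7.82, 8.24 and 8.23 in wild-type cells with rosiglitazone and 7.64, 8.18 and 7.94 in wild-type cells with DMSO. The E157D rosiglitazone arrays stood above the other 9, whose groups overlapped. The response was 2.18 in E157D cells and 0.17 in wild-type cells, a difference of 2.00 ± 0.31 (95% interval 1.32 to 2.69, adjusted p = 0.00708, limma). Ccl9, a chemokine, had log2 intensities of 11.71, 11.09 and 10.82 in E157D cells with rosiglitazone, 9.85, 9.73 and 9.20 in E157D cells with DMSO, 10.33, 10.18 and 10.23 in wild-type cells with rosiglitazone and 11.21, 10.44 and 10.75 in wild-type cells with DMSO. In DMSO the E157D arrays were below the wild-type arrays and in rosiglitazone above them, and the difference was 2.16 ± 0.35 (adjusted p = 0.00825, limma). Ccl9 was the 1 of 19 tested inflammatory genes that passed (all genes: 0.823% higher). Of the 19, 16 had a difference above 0 (all genes: 5329 of 10082), with a median of 0.41.

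Spon2, a secreted matrix protein, showed the other form. Its log2 intensities were 12.55, 12.61 and 12.86 in E157D cells with rosiglitazone, 12.21, 12.24 and 12.54 in E157D cells with DMSO, 9.99, 10.53 and 10.51 in wild-type cells with rosiglitazone and 11.48, 11.94 and 11.82 in wild-type cells with DMSO. Here the wild-type rosiglitazone arrays stood apart, below all others, with responses of 0.35 in E157D cells and -1.40 in wild-type cells and a difference of 1.75 ± 0.25 (adjusted p = 0.00434, limma). Rnase4, a secreted ribonuclease, had log2 intensities of 12.15, 12.10 and 11.87 in E157D cells with rosiglitazone, 12.38, 12.37 and 12.03 in E157D cells with DMSO, 10.04, 10.61 and 10.19 in wild-type cells with rosiglitazone and 11.90, 12.11 and 11.94 in wild-type cells with DMSO. Its response was -0.22 in E157D cells and -1.70 in wild-type cells, a difference of 1.48 ± 0.23 (adjusted p = 0.00636, limma). Ccdc3, a secreted protein, differed by 1.98 ± 0.35, and Htra3, a secreted protease, by 1.40 ± 0.31 (adjusted p = 0.0126 and 0.0403). Ltbp1, which stores TGF-β in the matrix, differed by 1.35 ± 0.31 and Tnc, tenascin-C, by 0.89 ± 0.20 (adjusted p = 0.0498 and 0.0403, limma for all). The call of Htra3 was lost when any 1 array except E157D rosiglitazone 3, E157D DMSO 3 and wild-type DMSO 1 was left out (adjusted p up to 0.101). That of Ltbp1 was lost when any 1 array except wild-type rosiglitazone 1, 2 and 3 was left out (adjusted p up to 0.115), and that of Tnc when any 1 array except E157D rosiglitazone 1 was left out (adjusted p up to 0.102). The calls of all 3 were also lost with no detection filter, and that of Tnc with median scaling. Of 3 further Tnc probes only 1 had the same sign as the value given, at 0.94, and the others were at -0.59 and -0.19.

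Among regulators of transcription, Klf4 had log2 intensities of 8.02, 8.45 and 8.09 in E157D cells with rosiglitazone, 7.07, 7.34 and 7.40 in E157D cells with DMSO, 6.34, 6.56 and 6.08 in wild-type cells with rosiglitazone and 7.04, 7.01 and 6.78 in wild-type cells with DMSO. The level was higher with the drug than with DMSO in E157D cells and lower in wild-type cells, with no overlap in either, and the difference was 1.53 ± 0.23 (adjusted p = 0.00565, limma). Klf5, a related factor, responded by 1.11 in E157D cells and -0.27 in wild-type cells, a difference of 1.38 ± 0.21 (adjusted p = 0.007, limma). Both Krüppel-like factors are known to act early in fat cell formation. They were the 2 of 17 tested adipogenic factors, PPARs, RXRs and coregulators that passed (all genes: 0.823% higher), and the list had 0 lower and a median of 0.09 (-0.10 at the floor). Vgll3, a cofactor of TEAD proteins, had log2 intensities of 10.40, 10.16 and 10.30 in E157D cells with rosiglitazone, 9.59, 9.72 and 9.58 in E157D cells with DMSO, 7.95, 7.97 and 7.69 in wild-type cells with rosiglitazone and 8.92, 8.78 and 8.65 in wild-type cells with DMSO. E157D levels were above wild-type levels in both treatments and the gap was wider with the drug, a difference of 1.57 ± 0.17 (adjusted p = 0.000606, limma).

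Aldh3a1, an aldehyde dehydrogenase listed with the NRF2 pathway, had log2 intensities of 10.53, 9.71 and 9.81 in E157D cells with rosiglitazone, 8.73, 8.17 and 8.55 in E157D cells with DMSO, 7.76, 7.73 and 7.53 in wild-type cells with rosiglitazone and 8.37, 7.86 and 8.13 in wild-type cells with DMSO. The E157D rosiglitazone arrays were above all others, and the difference was 1.98 ± 0.31 (adjusted p = 0.00708, limma). The NRF2 list had 1 higher and 1 lower of 20 (all genes: 0.823% and 1.41%) and a median of -0.12. The lower one was Gsta4, a glutathione transferase (-0.82 ± 0.17, adjusted p = 0.0314, limma). The call of Gsta4 was lost when any 1 array except E157D rosiglitazone 2, wild-type rosiglitazone 2 and wild-type DMSO 1 was left out (adjusted p up to 0.0816) and with median scaling. Gria1, a glutamate receptor subunit, differed by 1.69 ± 0.21, Sncg, gamma-synuclein, by 1.80 ± 0.31, and Apol9a, of the apolipoprotein L family, by 1.6 ± 0.22 (adjusted p = 0.00151, 0.0116 and 0.00302, limma for all). All E157D values of Sncg were above all wild-type values, with gaps of 3.54 in rosiglitazone and 1.75 in DMSO.

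The osteocalcin genes Bglap and Bglap2, of bone, responded more in E157D cells. Bglap had log2 intensities of 6.50, 6.54 and 6.62 in E157D cells with rosiglitazone, 5.46, 5.18 and 5.31 in E157D cells with DMSO, 4.54, 4.61 and 4.64 in wild-type cells with rosiglitazone and 4.64, 4.68 and 4.83 in wild-type cells with DMSO and was not above background in wild-type cells, and the difference was 1.36 ± 0.15 (adjusted p = 0.000736), or 1.19 at the floor. Bglap2, a near-identical neighbour whose probe may share signal, differed by 1.81 ± 0.30 (adjusted p = 0.00975), or 1.29 at the floor. They were the 2 of 8 tested bone-related genes that passed, both higher (all genes: 0.823% higher), with a median of 0.64. Eps8l2, an adaptor of the actin skeleton, Abcb4, a phospholipid transporter, and Fam117a were not above background in wild-type cells. E157D rosiglitazone levels were at least 2.19-fold and at least 3.19-fold above E157D DMSO levels for Eps8l2 and Abcb4. The differences of Eps8l2, Abcb4 and Fam117a were 1.57 ± 0.22, 2.08 ± 0.47 and 1.52 ± 0.34 (adjusted p = 0.00343, 0.0447 and 0.047, limma for all), or 1.08, 1.63 and 1.46 at the floor. The call of Abcb4 was lost when any 1 array except E157D rosiglitazone 1 and 2 was left out (adjusted p up to 0.108), and that of Fam117a when any 1 array except E157D rosiglitazone 2, E157D DMSO 2 and wild-type DMSO 1 was left out (adjusted p up to 0.114). Both were also lost with no detection filter, and that of Abcb4 without background correction and with the authors' processed values.

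Of 22 collagens and other matrix genes 18 had a difference above 0 (all genes: 5329 of 10082). Of these genes 1 passed as higher (Tnc) and 0 as lower (all genes: 0.823% and 1.41%), with a median of 0.36 (0.29 at the floor). The median response was -0.20 in E157D cells and -0.56 in wild-type cells. Of 12 small leucine-rich proteoglycans and hyaluronan genes 0 passed, with a median of 0.27. Dcn, decorin, differed by 0.94 ± 0.24 (adjusted p = 0.0803, limma), and passed in 6 of 22 alternatives (adjusted p 0.0106 to 0.220), including without wild-type rosiglitazone array 2 (1.12, adjusted p = 0.0281). Of 20 contractile, TGF-β and YAP target genes 0 passed and 17 were above 0, with a median of 0.29, and Tgfbi, a TGF-β-induced matrix protein, differed by 0.80 ± 0.20 (adjusted p = 0.067, limma) and passed in 5 of 22 alternatives (adjusted p 0.00364 to 0.163). Of 13 interferon-stimulated genes 1 passed (all genes: 0.823% higher), Ifit2 (1.06 ± 0.23, adjusted p = 0.0367, limma), and the median was 0.23. The call of Ifit2 was lost when any 1 array except E157D rosiglitazone 3, wild-type rosiglitazone 2 and wild-type DMSO 2 was left out (adjusted p up to 0.093) and with no detection filter.

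In 3 further lists no member passed. Over all genes 2.23% passed in either direction, so 0 in lists of the sizes given here is near that share. Fatty acid and cholesterol synthesis had 0 of 20 and a median of -0.03, with Scd1, a desaturase, at 0.52 ± 0.18 (adjusted p = 0.174), which passed in 3 of 22 alternatives (adjusted p 0.0421 to 0.468). DNA replication and mitosis had 0 of 21 and a median of 0.15, and p53 targets 0 of 16 and a median of 0.11, with Gadd45a at -0.94 ± 0.24 (adjusted p = 0.0753). Gadd45a passed in 7 of 22 alternatives (adjusted p 0.00573 to 0.163), including without E157D DMSO array 3 (-1.14, adjusted p = 0.0195). Of the brown fat markers 3 of 9 on the array were tested and 0 passed, among them Ppargc1a, a coactivator that drives mitochondrial genes, at -0.81 ± 0.22 (adjusted p = 0.0963) and Cpt1b, the muscle-type carnitine transferase, at -1.16 ± 0.27 (adjusted p = 0.0515, limma for all). Cpt1b passed in 5 of 21 alternatives (adjusted p 0.0182 to 0.125), including without wild-type DMSO array 2 (-1.37, adjusted p = 0.0182). Ucp1 and Cidea were not detected on enough arrays to be tested.

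**Figure D5:**
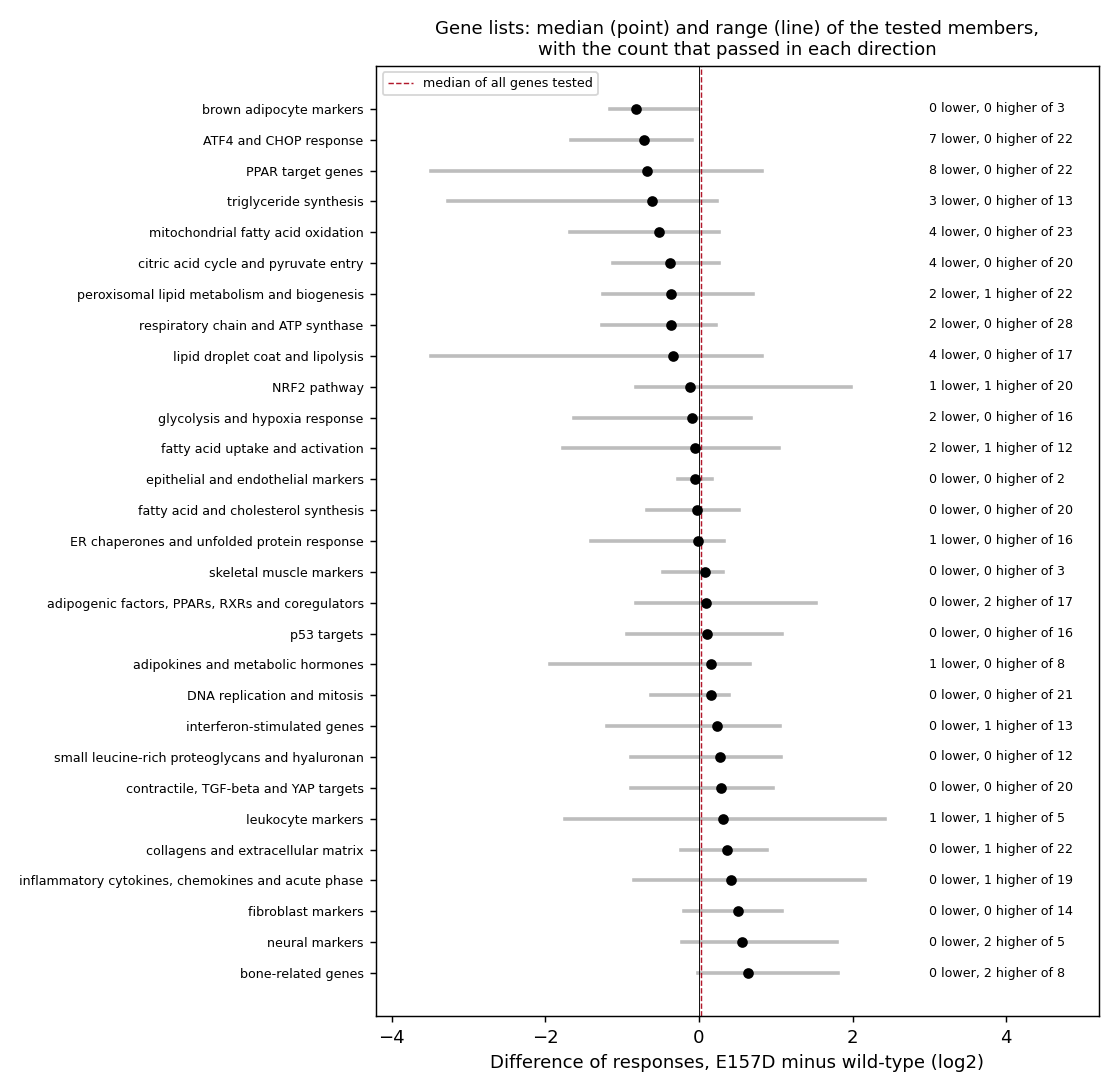
Median (point) and range (grey line) of the log2 difference of responses, E157D minus wild-type, over the tested genes of each of 29 lists, with the counts that passed in each direction on the right and the median of all genes as a dashed line. The medians of PPAR target genes, triglyceride synthesis, mitochondrial lists and the ATF4 and CHOP response lie below 0, and those of matrix, bone and fibroblast genes above it.

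Cell type markers were set beside these results. All 14 fibroblast markers were tested, 12 had a difference above 0 (all genes: 5329 of 10082) and 0 passed, with a median of 0.51. Their summed normalised intensity was 71403 to 82815 in E157D rosiglitazone, 101802 to 105245 in E157D DMSO, 47961 to 58508 in wild-type rosiglitazone and 85098 to 91107 in wild-type DMSO. The sums were thus lower with the drug with either receptor, and their part in the other differences was not tested. Of 15 leukocyte markers on the array 5 were tested, 1 of them higher and 1 lower (all genes: 0.823% and 1.41%). Prg2, a granule protein of eosinophils, was higher (2.42 ± 0.30, adjusted p = 0.00151) and Tpsab1, a tryptase of mast cells, lower (-1.74 ± 0.36, adjusted p = 0.0314, limma for both). At the floor they were 2.07 and -2.17. The call of Tpsab1 was lost when any 1 array except E157D DMSO 1, wild-type rosiglitazone 1, 2 and 3 and wild-type DMSO 1 was left out (adjusted p up to 0.0839) and with no detection filter.

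Tpsab1 had log2 intensities of 5.47, 5.83 and 5.62 in E157D cells with rosiglitazone, 4.68, 5.10 and 5.24 in E157D cells with DMSO, 13.18, 12.08 and 12.28 in wild-type cells with rosiglitazone and 10.37, 9.88 and 10.16 in wild-type cells with DMSO. It was high in wild-type cells in both treatments and near or below background in E157D cells. The defining leukocyte markers Ptprc, Csf1r, Adgre1, Itgam and Cd3e and the mast cell markers Cpa3 and Mcpt4 did not pass the detection filter. The summed intensity of the 5 tested leukocyte markers was 731 to 931 in E157D rosiglitazone, 263 to 389 in E157D DMSO, 8127 to 14054 in wild-type rosiglitazone and 2447 to 3297 in wild-type DMSO. Of 12 epithelial and endothelial markers 2 were tested, and of 9 skeletal muscle markers 3, and 0 passed in either (all genes: 2.23%). Of 10 neural markers 5 were tested and 2 passed as higher (all genes: 0.823%), Sncg and Map2, a microtubule protein (1.01 ± 0.21, adjusted p = 0.0345, limma), with a median of 0.56 (0.19 at the floor), and the call of Map2 was lost when any 1 array except wild-type rosiglitazone 1 and wild-type DMSO 1 and 3 was left out (adjusted p up to 0.0814).

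Some drug responses lay within a margin of 1.5-fold between the receptors. The 95% interval of the difference lay within 1.5-fold either way for 4916 of the 18921 probes (26%). Of 4749 probes whose average response over the receptors passed (adjusted p under 0.05, limma), 284 also passed for the difference, 1095 lay within that margin, 546 of them higher and 549 lower with the drug, and 3370 met neither. Most responses were therefore not measured finely enough to be called different or alike. Of the 303 probes with an average response of at least 2-fold, 78 differed and 7 lay within the margin. No group lacked a transduced receptor, so a response alike with both may also have needed neither receptor, which cannot be separated here.

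Tnfrsf11b, a decoy receptor that restrains bone resorption, was the largest response of this kind that was lower with the drug. Its log2 intensities were 8.58, 8.42 and 8.53 in E157D cells with rosiglitazone, 9.98, 9.80 and 9.89 in E157D cells with DMSO, 8.06, 8.17 and 7.94 in wild-type cells with rosiglitazone and 9.77, 9.33 and 9.55 in wild-type cells with DMSO. Rosiglitazone arrays lay below DMSO arrays with both receptors, by -1.38 in E157D cells and -1.49 in wild-type cells, and the difference was 0.11 ± 0.18 (95% interval -0.28 to 0.50). Hagh, a glyoxalase that clears methylglyoxal products, had log2 intensities of 10.53, 9.96 and 10.43 in E157D cells with rosiglitazone, 9.32, 9.05 and 9.16 in E157D cells with DMSO, 10.74, 10.38 and 10.43 in wild-type cells with rosiglitazone and 9.26, 9.36 and 9.31 in wild-type cells with DMSO. Its responses were 1.13 in E157D cells and 1.2 in wild-type cells, and the difference was -0.07 ± 0.22 (95% interval -0.55 to 0.40). Chst11, a chondroitin sulfotransferase (-0.02 ± 0.22), was alike and higher with the drug. Gbp3, an interferon-induced GTPase (-0.0038 ± 0.25), Trib2, a relative of Trib3 (0.15 ± 0.16), Rgs3, a regulator of G protein signalling (0.10 ± 0.21), Neurl1a (0.09 ± 0.21) and Spire2, an actin nucleator (0.10 ± 0.19), were alike and lower with the drug. The adjusted p-values of these 8 differences were 0.712 to 0.996 with limma. Chrna2, an acetylcholine receptor subunit, met the same margin (-0.03 ± 0.24) but was not above background in DMSO with either receptor, so its responses are known only as at least 1.85-fold in E157D cells and at least 1.89-fold in wild-type cells and were not compared.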

How the data were processed

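RNA of 12 cultures was hybridised to Illumina 1-colour bead arrays. Per the file headers, the authors deposited for every array and probe an intensity before normalisation and its detection p-value. Their second table of processed intensity values, made in a way the sources used here do not state, served as an alternative. The normexp correction took its negative controls from the detection p-values, with an offset of 16, and log2 values were then quantile-normalised (limma 3.58.1, R 4.3.3). A shift of all genes one way would not show. A probe was kept where its detection p was under 0.05 on 3 or more of 12 arrays. Gene symbols came from the platform annotation, which gives 1 symbol for 34885 probes, several for 18 and none for 10378. By gene number 34807 probes matched RefSeq.

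With lmFit and eBayes, 4 group means were fitted on all 12 arrays (8 residual and 4.22 prior degrees of freedom), and the difference of responses was tested with Benjamini-Hochberg adjustment over all 18921 kept probes. A call is an adjusted p under 0.05, errors are standard errors, and intervals are 95% intervals of the fit. The number of arrays limits the precision, and no arrays were duplicates of each other. The fit was tested on simulated data.

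Genes named were, by a written rule, the 14 lowest and 14 highest differences among genes with an established symbol detected in every group, the 10 lowest and 6 highest with a group not detected, up to 4 genes of each list that passed (or the 2 with the smallest p), 10 fixed genes and the 10 largest average responses within the margin of 1.5-fold. The text gives most of those. Members, lists and the rule were chosen with earlier results of these data known. Alternatives changed the normalisation, background, offset, filter, variance model, block and each array in turn.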

Additional observations from a re-analysis of the deposited data

Results flagged for a closer look

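A result stands here where the E157D and wild-type responses to rosiglitazone differed by the test of the difference itself (limma, adjusted p under 0.05). That was so for 349 probes and for 77 of the genes named above. Groups of 3 arrays were too small for a test of single arrays that stand apart. Values are E157D minus wild-type on the log2 scale, and no explanation was weighed.

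For droplets, triglyceride synthesis, fatty acid uptake and activation and adipokines the difference was -3.48 for G0s2 and -3.27 for Agpat2. It was -3.10 for Cidec, -2.93 for Plin1, -2.49 for Gpat3 and -2.20 for Aqp7. It was -1.94 for Adipoq, -1.76 for Fabp5, -1.58 for Dgat1 and -0.99 for Lpl, and the 1 higher value of that group was 1.04 for Acsbg1. For oxidation and energy metabolism it was -1.68 for Crat, -1.46 for Acot2, -1.25 for Pex19, -1.10 for Pex16, -0.83 for Decr1 and -0.64 for Cpt2, and 0.70 for Acox3. The values were -1.26 for Cycs, -1.12 for Idh3a, -1.07 for Pdhb, -1.05 for Mdh1, -0.74 for Cyc1 and -0.72 for Cs. For stress and hypoxia genes they were -1.67 for Trib3, -1.44 for Chac1, -1.15 for Ppp1r15a, -1.03 for Ddit3, -1.01 for Mthfd2, -0.80 for Phgdh and -0.75 for Wars. They were also -1.63 for Egln3, -1.41 for Dnajb9, -0.85 for Vegfa and -0.82 for Gsta4.

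Other lower responses were -3.57 for S100a1, -2.72 for Lims2, -2.24 for Chchd10, -2.12 for Slc25a10, -2.02 for Slc5a6, -1.98 for Mfsd7a and -1.91 for Glyat. Further ones were -1.89 for Fam107b, -1.88 for Aplp2, -1.88 for Tfrc, -1.86 for Slc41a3 and -1.82 for Cdsn. Other lower responses with a group not above background were -3.88 for Ffar2, -3.55 for Atp2a3, -3.15 for Cyp4b1-ps2, -2.51 for Sh3tc2, -2.38 for Cyp4b1, -2.34 for Aldh1a7 and -1.74 for Tpsab1.

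Higher responses were 2.16 for Ccl9, 2.00 for Dpt, 1.98 for Ccdc3, 1.98 for Aldh3a1, 1.80 for Sncg, 1.75 for Spon2 and 1.69 for Gria1. Next came 1.6 for Apol9a, 1.57 for Vgll3, 1.53 for Klf4, 1.48 for Rnase4, 1.40 for Htra3, 1.38 for Klf5 and 1.35 for Ltbp1. Smaller ones were 1.06 for Ifit2, 1.01 for Map2 and 0.89 for Tnc. Higher responses with a group not above background were 2.42 for Prg2, 2.08 for Abcb4, 1.81 for Bglap2, 1.57 for Eps8l2, 1.52 for Fam117a and 1.36 for Bglap.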

How the results depend on the processing

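Of the 349 probes, 225 lower and 124 higher, median scaling of the arrays left 220 (132 and 88) and shared 205 with them. Without background correction 824 passed (522 and 302), with an offset of 50 in place of 16 525 passed (339 and 186), with the authors' processed values 829 (527 and 302) and with a trended, robust variance 731 (440 and 291). These shared 319, 335, 319 and 329 probes with the 349. Array weights, detection on all 12 arrays and no detection filter gave 366, 387 and 268. A fit of 1 probe a gene together with the 2924 probes without a symbol gave 311 of 13006, which is not a count of genes. Leaving out 1 array gave 179 to 300 in all, 125 to 189 lower and 54 to 113 higher. The share of lower responses was 59.9% to 69.8% throughout. The median difference of all kept probes was 0.019, and 0.060 with median scaling.

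The responses that did not differ by the test, 1095 probes with an average response and an interval within 1.5-fold, became 295 with median scaling, 3522 without background correction, 1935 with the offset of 50 and 3557 with the authors' processed values. They were 7 within the narrower margin tried, 3369 within 2-fold and 611 to 1049 without 1 array. Of the 77 named genes that passed, 53 kept their call in all 12 fits without 1 array and in every other alternative they entered (10, or 9 for the 23 genes not detected on all 12 arrays), and none reversed. Median scaling ended the calls of Decr1, Cpt2, Acox3, Cyc1, Mdh1, Cs, Vegfa, Ddit3, Gsta4, Tnc, Phgdh and Wars (adjusted p up to 0.238). No detection filter ended those of Htra3, Ltbp1, Tnc, Abcb4, Fam117a, Decr1, Cycs, Ifit2, Tpsab1 and Phgdh (up to 0.0839). Array weights ended the call of Decr1 (0.062), the trended variance that of Acox3 (0.0591), and no background correction and the authors' processed values that of Abcb4 (0.0505 and 0.0546). Named genes that passed under an alternative but not as reported were Gadd45a and Fgf21 (7 alternatives each), Dcn (6), Tgfbi and Cpt1b (5 each), Scd1 and S100a4 (3 each), and Fabp4 and Actg2 (1 each). The cause of these changes was not tested.

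Sizes shrank by over 1.5 times for 30 of the 77 without background correction and for 30 with the authors' processed values, for 3 with the offset of 50 (Glyat, Eps8l2 and Bglap), and for 0 in any other fit. Without background correction the differences were -2.16 for Ffar2, -1.99 for Agpat2, -1.71 for Lims2, -1.62 for Atp2a3, -1.27 for Cyp4b1-ps2, -1.21 for Plin1 and for Aqp7, and -1.35 for Aldh1a7. They were -1.18 for Fam107b, -1.16 for Mfsd7a, -1.04 for Sh3tc2, -0.97 for Slc41a3, -0.93 for Fabp5, -0.91 for Cyp4b1, -0.85 for Chchd10, -0.65 for Glyat and -0.48 for Decr1. The higher ones were 1.02 for Prg2, 0.99 for Bglap2, 0.95 for Ccdc3, 0.90 for Htra3, 0.79 for Klf4, 0.76 for Abcb4, 0.69 for Apol9a, 0.63 for Ltbp1, 0.57 for Acsbg1, 0.55 for Fam117a, 0.49 for Eps8l2, 0.46 for Bglap and 0.41 for Acox3.

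Arrays with the same replicate number were checked for pairing. Their deviations from the group means correlated at 0.015 to 0.235 over 18 pairs, 11 of them above 0.1, and 11 of 12 arrays had their best correlation within their own number. Pairs of arrays with other numbers correlated at -0.223 to 0.147, so arrays with the same number tended to be more alike. The labels do not say that a number marks a shared day, and the reported fit has no block. The counts and calls above rest on that unblocked fit, and any spread shared within a number stays in its errors. With the number as a replicate block 499 probes passed, 299 lower and 200 higher, 333 of them shared with the 349, and of the named genes Htra3 and Phgdh did not pass (adjusted p = 0.0557 and 0.0505). Slide could not be tried as a block, since the file headers used here give none. With 3 arrays a group only large differences pass, and probes near background have compressed ones.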
